A study of Homo sapiens with 14 samples.

Results

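The genes described here are those that could be compared between 2 assays of control cells, PARS-seq and RNA-seq. Whether both assays were made from the same RNA is not given in the sources used here. A gene was taken when it reached at least 5 RPKM (reads per kilobase of transcript, scaled to sequencing depth) in either control PARS-seq replicate or in the control RNA-seq library, and 9091 of the 21574 genes in the deposited table did. Of these, 6181 reached 5 RPKM in both assays, 1726 only in PARS-seq and 1184 only in RNA-seq. For each PARS-seq replicate the log2 of (PARS-seq RPKM + 1) over (RNA-seq RPKM + 1) was computed, so that a positive value means a higher level in PARS-seq. The filter used the level and not the ratio, but a gene that passed through 1 assay only was chosen in part for a difference between the assays, and counts over such genes are descriptions.

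The cells are labelled HepG2, an established human liver cancer line, and the control cells received scrambled siRNA. Of the 14 samples of the series, 5 are control libraries of these assays: 2 PARS-seq replicates, each with an S1 nuclease and an RNase V1 library, and a single RNA-seq library. The ADAR1 KD cells, which received siRNA against ADAR1 (gene symbol ADAR), and the 2 control Ribo-seq libraries were used only where named. The labels call the transfection stable although the agent is siRNA, and they give all samples the same preparation, with DNase-treated Trizol RNA, selection of poly-A RNA and a small RNA library kit. A separate library kit for RNA-seq is not given in the sources used here.

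In PARS-seq, folded RNA is cut in the tube. S1 nuclease cuts unpaired bases and RNase V1 cuts paired bases, and adapters ligated to the fragments mark where each cut fell. RNA-seq instead samples the whole length of each poly-A transcript. Poly-A selection keeps messenger RNAs and many long noncoding RNAs, while the RNAs of small ribonucleoproteins, nucleolar RNAs and the histone messengers of S phase normally end without a poly-A tail. Both assays also depend on transcript length, base composition and on how uniquely a read aligns.

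Each PARS-seq value is the authors' mean of the S1 and the V1 library, so it carries no SD. The RPKM summed to between 431057 and 444471 in the 3 control columns. The table gives no read numbers, but from its smallest RPKM steps 5 RPKM on a transcript of 1000 bases was estimated at 204 reads in the control RNA-seq library. The labelled line could not be recognised from its markers: each of 8 hepatocyte markers (ALB, AFP, APOA1, APOB, TTR, HNF4A, FGB, SERPINA1) stayed at or below 0.803 RPKM in all 8 RPKM columns used. ADAR itself read 40.7 and 46.8 RPKM in the control PARS-seq replicates and 54.8 in RNA-seq, against 15.1, 15.1 and 15.4 in the KD columns, so both assays carried the knockdown. In such bulk RNA, fewer cells of a type and less RNA per cell cannot be told apart.

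PARS-seq replicates ranked genes alike, and PARS-seq ranked them differently from RNA-seq. Across the 9091 genes Spearman's rho was 0.978 between the PARS-seq replicates and 0.979 between control and KD RNA-seq, but 0.485 and 0.508 between each PARS-seq replicate and RNA-seq. These are correlations across genes, which are not independent replicates. The log2 ratio had a median of -0.06 in replicate 1 and -0.11 in replicate 2, with an SD across genes of 1.73 and 1.69. The replicates differed by a median of 0.198 on the same scale, although they share the RNA-seq library and the error of that library does not show in this difference. Among genes at 5 RPKM in both assays the medians were -0.23 and -0.24, and levels of gene lists are best read against this shift.

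In both control replicates 2293 genes (25.2%) were at least 2-fold higher in PARS-seq and 2654 (29.2%) were at least 2-fold lower. No gene was past 2-fold in opposite directions in the 2 replicates, and 425 had ratios of opposite sign. In the KD cells, whose libraries are separate, 2384 genes (26.2%) were higher and 2561 (28.2%) lower. Of the genes higher in control, 90.6% were higher in KD and 0 were lower, and of those lower in control 89.4% were lower in KD and 0 were higher. A limma fit on log2(RPKM + 1) of the 4 PARS-seq and 2 RNA-seq columns, with condition as a term, called 3723 genes (41%) higher and 3981 (43.8%) lower in PARS-seq at a Benjamini-Hochberg adjusted p under 0.05. Of these, 2550 and 2803 also differed by at least 2-fold. With columns centred on their median the fit called 4211 higher and 3582 lower, so the balance of directions depends on the scaling. The median SE of a gene's log2 difference in this fit was 0.147, and the spread of RNA-seq in it comes from 1 library in each condition. Where RNA-seq was near 0, the fitted difference depends on the added 1 and is no measure of fold. Genes under 5 RPKM in either assay entered through the other, so the difference of each such gene is given as a value with no p. All counts of limma calls, here and for the lists, still include them. These are 1726 genes that passed through PARS-seq only and 1184 through RNA-seq only, whose direction the filter favoured. The counts of calls are therefore descriptions.

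**Figure D1:**
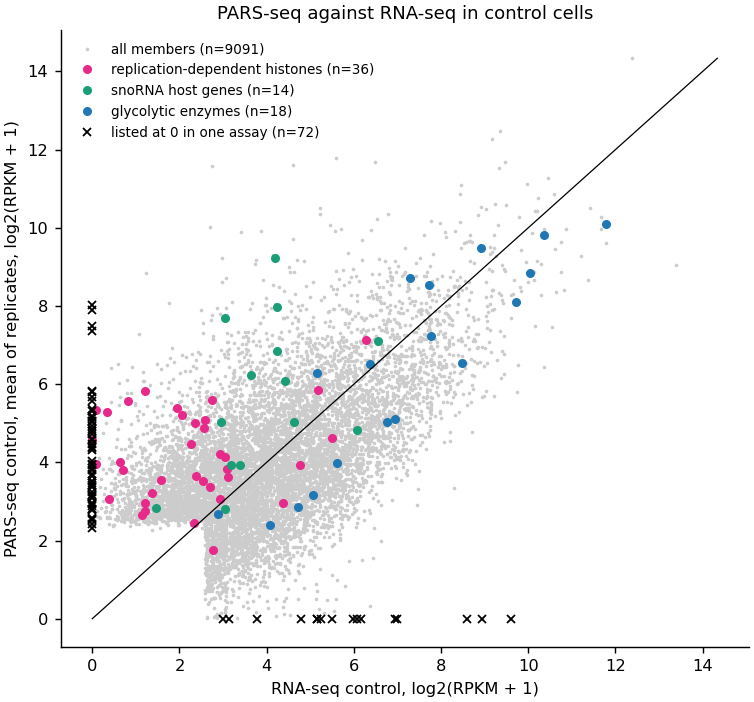
Each point is a gene, with its control RNA-seq level on the x axis and the mean of the control PARS-seq replicates on the y axis, both as log2(RPKM + 1), and the line marks equal levels. Histone and snoRNA host genes lie mostly above the line and glycolytic enzymes mostly below it, and the 72 genes listed at 0 in 1 assay lie on the axes.

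Base composition ordered the ratio over its whole range. An annotated transcript was found for 8546 of the genes (94.0%), 8411 of them protein-coding. The 100 transcripts with at most 35% GC had median log2 ratios of 2.17 and 2.05 in the control replicates, and 86 of them were at least 2-fold higher in PARS-seq. The median then passed through 0.99 and 0.89 at 40 to 45% GC and -0.63 and -0.65 at 50 to 55% GC. The 360 transcripts over 65% GC had medians of -2.45 and -2.21, and 331 of them (91.9%) were at least 2-fold lower. The KD medians were 1.98 and 1.80 in the lowest class and -2.42 and -2.19 in the highest. AU-rich messengers were the over-represented class of PARS-seq relative to RNA-seq, and GC-rich messengers the under-represented one.

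**Figure D2:**
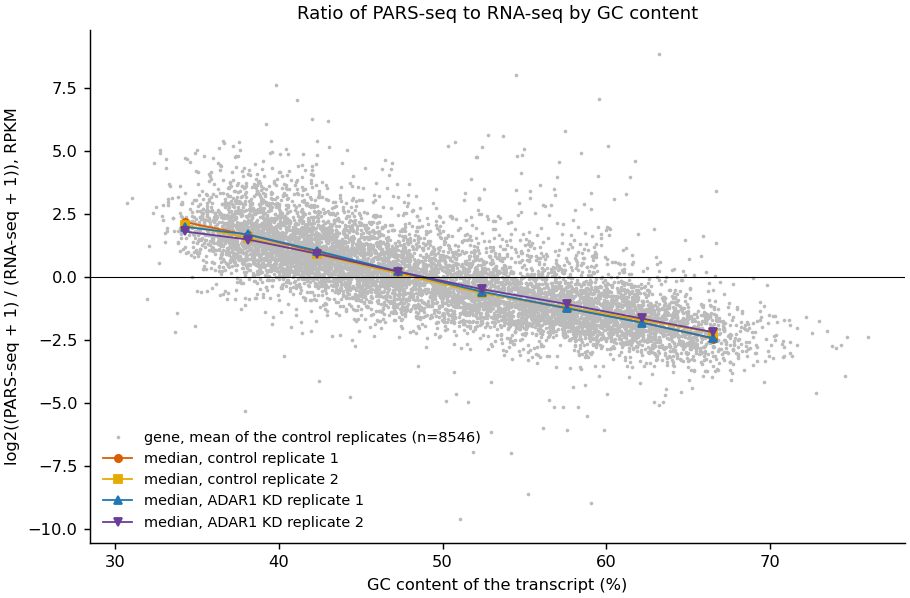
Grey points are the 8546 genes with a transcript, with the GC content of the transcript in percent on the x axis and the mean log2 ratio of the control replicates on the y axis, and lines join class medians of each control and KD replicate. The class medians of all 4 replicates run from about 2 at the left to below -2 at the right.

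Among the protein-coding genes, GC content and the log2 ratio gave Spearman's rho of -0.80 and -0.77 for control and -0.79 and -0.75 for KD. It was slightly smaller for the coding sequence (-0.78 and -0.76), followed by the third codon position (-0.75 and -0.74) and the 3' UTR (-0.72 and -0.70). The 5' UTR gave -0.34 and -0.33. These features are correlated with each other, and their parts were not separated. Transcript length gave only 0.14 and 0.15. Within transcripts of 1000 to 2000 bases the medians still ran from 1.97 and 1.75 at 35 to 40% GC to -2.44 and -2.23 over 65% GC, and within transcripts of 4000 to 6000 bases from 1.57 and 1.49 to -2.53 and -2.14. The same order showed by chromosome, since the 569 genes of the GC-rich chromosome 19 had medians of -1.65 and -1.58, and the 118 genes of chromosome 13 had 1.01 and 0.96.

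The 2 assays did not share this trend equally. To look at levels without a filter on either assay, 5466 protein-coding genes with an annotated transcript were taken that reached 5 RPKM in both control Ribo-seq libraries. Over these genes the median control RNA-seq level rose from 5.07 RPKM at up to 35% GC to 24.1 at 45 to 50% and 59.7 over 65%, and the KD RNA-seq library ran from 4.66 to 72.7. The median PARS-seq levels were 33.2 and 21.9 RPKM in the lowest class, 26.6 and 26.6 at 45 to 50%, and 9.64 and 11.2 in the highest. Median Ribo-seq levels in these end classes were 17.4 and 16.8 RPKM for replicate 1, and 10.7 and 23.5 for replicate 2. Spearman's rho of GC content with the level was 0.59 in RNA-seq, -0.20 and -0.15 in PARS-seq, and 0.01 and 0.31 in Ribo-seq. Between 35 and 55% GC the class medians of PARS-seq stayed between 21.9 and 28.0 RPKM while those of RNA-seq climbed from 7.64 to 38.4, and above 55% GC those of PARS-seq fell. Which assay is nearer to the number of molecules was not tested.

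**Figure D3:**
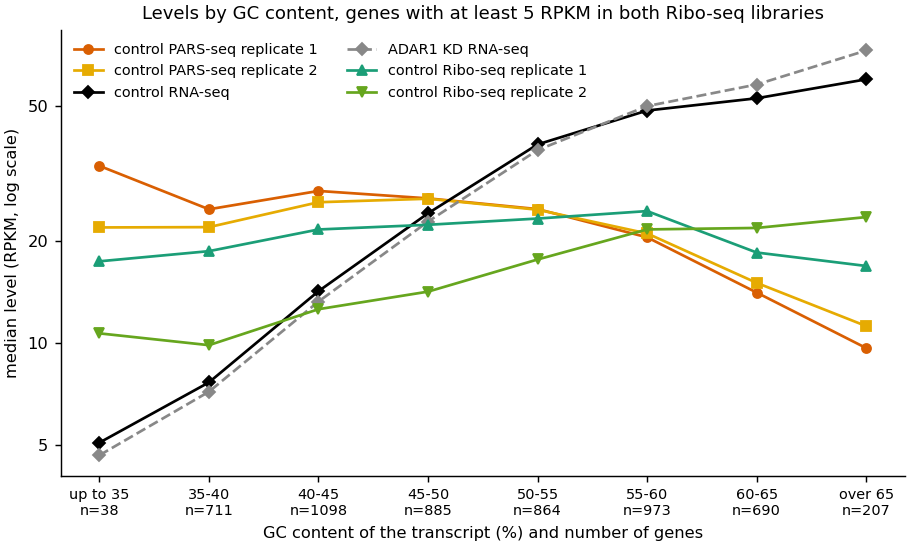
The median RPKM (y axis, log scale) of protein-coding genes with at least 5 RPKM in both control Ribo-seq libraries is drawn for classes of transcript GC content (x axis, percent, with the number of genes under each class). The 2 RNA-seq lines climb from about 5 to 59.7 and 72.7 RPKM, while the 2 control PARS-seq lines stay above 20 up to 60% GC and then drop to 9.64 and 11.2.

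S1 and V1 libraries could also be read apart, from the deposited read starts per transcript. This covers 1852 genes of the table whose transcript the study paired with a symbol and listed in all 4 control PARS-seq libraries, a partial list that the study chose. Spearman's rho of GC content with read starts per kilobase was 0.01 and 0.01 for S1 and 0.06 and 0.15 for V1, against 0.70 for RNA-seq RPKM of the same genes. The ratio of read starts to RNA-seq fell with GC content by rho of -0.75 and -0.74 for S1 and of -0.75 and -0.72 for V1. The S1 to V1 ratio followed GC content with rho of -0.10 in replicate 1 and -0.32 in replicate 2, so in their relation to GC content the enzymes were nearer to each other than either was to RNA-seq.

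A few genes with a high PARS-seq level were uneven between the enzymes. EMG1, a methyltransferase of ribosome biogenesis, had 681 and 1014 S1 depth-scaled read starts per kilobase in the control replicates but 4206 and 5621 with V1, against 87.9 RPKM in RNA-seq. PHF10, a subunit of a chromatin remodelling complex, had 16.8 and 21.3 with S1 and 268 and 416 with V1, against 6.31 RPKM. The U4atac RNA of the minor spliceosome, RNU4ATAC, went the other way, with 260 and 178 for S1 and 78.5 and 63.3 for V1. By contrast KIAA0101, a binding partner of the replication clamp, was high with both, at 2677 and 2889 for S1 and 2495 and 2957 for V1.

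The small structured RNAs of ribonucleoprotein particles had the highest median ratio of the lists, as a description. Of 12 listed genes 11 passed the filter, 9 of them through PARS-seq only, where they are high. Among the 11, 10 were at least 2-fold higher in PARS-seq in both replicates and 0 lower, against 25.2% and 29.2% of all genes, counts that the filter largely set. The median log2 ratios were 5.05 and 5.62 for the control replicates, and those of KD were 5.50 and 5.55. The other 2, RMRP and RPPH1, reached 5 RPKM in RNA-seq as well, and 6 of the 11 were listed at 0 there. RMRP, the RNA of RNase MRP that processes ribosomal RNA precursors, was the highest of all genes after its GC content was taken into account. It read 3147 and 2997 RPKM in control PARS-seq and 5.68 in RNA-seq, and 3544, 2512 and 2.22 in the KD columns. All 4 PARS-seq values lay far above both RNA-seq values (limma log2 difference 9.35, SE 0.24, adjusted p = 5.99e-09). The whole RMRP RNA of 264 bases (GRCh37, chr9:35657751-35658014, minus strand) and the vault RNA VTRNA2-1 of 128 bases (GRCh37, chr5:135416159-135416286, minus strand) are shown because they are short, fold on themselves and span 63.3% and 50.8% GC, with G and C in capitals:
RMRP: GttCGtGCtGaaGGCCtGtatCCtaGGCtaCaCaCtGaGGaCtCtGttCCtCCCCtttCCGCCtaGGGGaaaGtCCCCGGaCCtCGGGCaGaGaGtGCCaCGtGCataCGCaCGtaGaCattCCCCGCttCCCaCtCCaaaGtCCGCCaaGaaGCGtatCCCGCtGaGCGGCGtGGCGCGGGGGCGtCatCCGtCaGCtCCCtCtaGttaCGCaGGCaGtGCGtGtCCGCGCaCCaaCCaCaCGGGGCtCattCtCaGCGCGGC
VTRNA2-1: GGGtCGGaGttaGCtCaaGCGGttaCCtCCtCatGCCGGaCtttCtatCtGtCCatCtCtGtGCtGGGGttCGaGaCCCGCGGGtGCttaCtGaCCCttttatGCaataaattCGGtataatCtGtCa

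RPPH1, the RNA of RNase P that trims tRNA precursors, read 302 and 540 RPKM in PARS-seq and 7.34 in RNA-seq. The minor spliceosome RNAs RNU11 and RNU12 read 171 and 139, and 105 and 77.0, in PARS-seq, against 1.09 and 0.494 in RNA-seq. RNU4ATAC read 186 and 141 in PARS-seq and was listed at 0 in both RNA-seq libraries. The lowest of the list was RNU6ATAC with 7.10 and 5.87 in PARS-seq and 2.55 in RNA-seq, a log2 ratio of 1.19 and 0.95. The vault RNAs VTRNA1-1 (17.4 and 20.6 RPKM in PARS-seq), VTRNA1-2 (18.2 and 21.3) and VTRNA2-1 (32.0 and 48.2) and the telomerase RNA TERC (9.05 and 9.92), whose transcript has 66.7% GC, were all listed at 0 in control RNA-seq. Ribo-seq replicate 2 held far more of the vault RNAs than either assay, up to 27003 RPKM for VTRNA1-2.

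Small nucleolar and Cajal body RNAs, which guide modification of ribosomal and spliceosomal RNA, passed the filter in 27 of 113 cases. The median log2 ratios were 3.82 and 3.79, with 26 (96.3%) higher and 1 (3.70%) lower by the 2-fold rule in control and the same counts in KD, against 25.2% and 29.2% of all genes in control and 26.2% and 28.2% in KD. Only 1 reached 5 RPKM in both assays and 14 were listed at 0 in RNA-seq, so most of the list entered through PARS-seq and had to be higher there. SNORD104 was the most abundant, with 955 and 976 RPKM in PARS-seq and 46.3 in RNA-seq. SNORD60 read 265 and 277 against 2.37, and SNORD5 read 140 and 219 against a value listed at 0. The exception was SNORD116-4, at 0.942 and 0.773 in PARS-seq and 10.8 in RNA-seq. The copies of SNORD116 are close in sequence, so the level of each is uncertain.

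**Figure D4:**
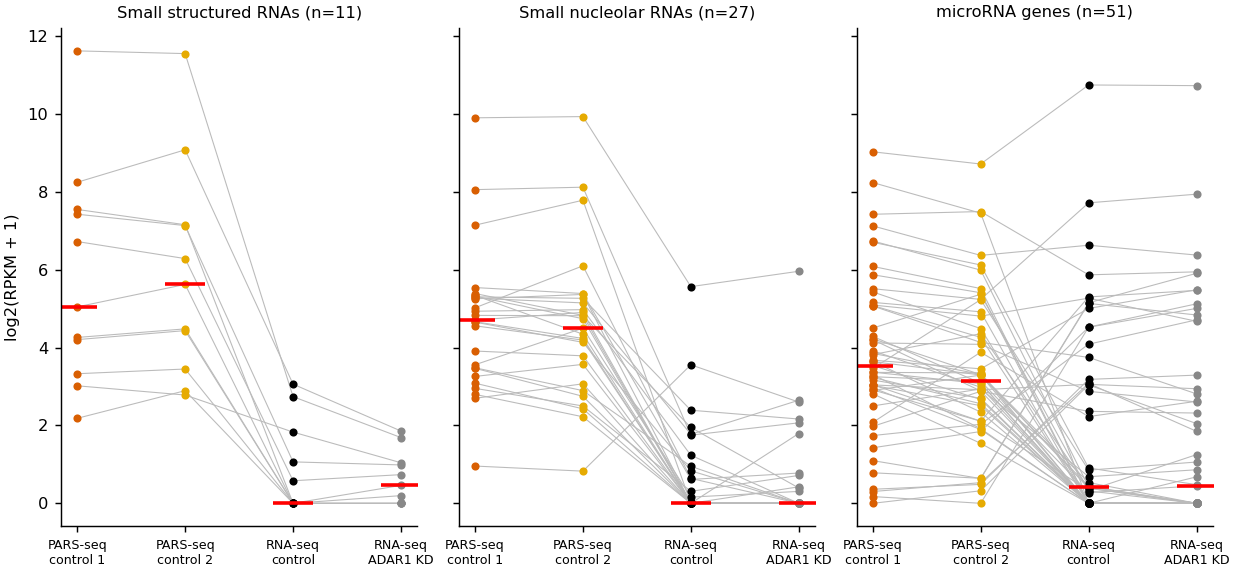
Points are the log2(RPKM + 1) of each small structured RNA, small nucleolar RNA and microRNA gene in the control PARS-seq replicates and in the control and KD RNA-seq libraries, with grey lines joining a gene and red bars at the medians. In the first and second panel the RNA-seq medians are at or near 0, while the microRNA panel splits into genes that drop and genes that climb.

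The host genes that carry small nucleolar RNAs in their introns followed in part. All 14 passed, 13 of them in both assays, with medians of 1.30 and 1.68 against 0.17 for the value at their GC content, 8 (57.1%) higher and 1 (7.14%) lower, against 25.2% and 29.2% of all genes. The limma fit called 10 higher and 1 lower, against 41% and 43.8%. The row of SNHG1 with its SNORD genes read 652 and 549 RPKM in PARS-seq and 17.3 in RNA-seq, GAS5 with its SNORD genes read 261 and 236 against 17.8, and SNHG5 read 172 and 242 against 7.26. SNHG6 (138 and 135 against 92.5) and SNHG15 (25.8 and 37.1 against 23.6) stayed within 2-fold. The row of SNHG13 was lower, at 24.7 and 30.4 against 65.8. The table joins host and guest genes in a row, and the spliced host RNA cannot be told apart from the excised guests in it.

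Long noncoding RNAs as a whole lay above all genes, with medians of 0.59 and 0.66 over the 60 that passed of 260. Of these 24 (40%) were higher and 16 (26.7%) lower, against 25.2% and 29.2% of all genes. Of the 60, 12 had passed through PARS-seq only and 9 through RNA-seq only. Among the 39 at 5 RPKM in both assays 16 (41.0%) were higher and 9 (23.1%) lower, against 17.0% and 27.8% of all such genes. The list was made by name, and 6 of its rows, TUG1 among them, matched genes now annotated as protein-coding. The extremes were large. MALAT1, a nuclear RNA of about 10 kilobases that ends in a triple helix in place of a poly-A tail, read 533 and 664 RPKM in PARS-seq and 6.85 in RNA-seq, and 974, 867 and 3.07 in KD (limma log2 difference 7.03, SE 0.30, adjusted p = 5.38e-08). Its neighbour NEAT1 read 199 and 340 against 184, within 2-fold, but 529, 787 and 161 in KD, where it was higher by the 2-fold rule. H19, an imprinted RNA that is spliced and polyadenylated and hosts MIR675, was the highest row of both RNA-seq libraries, with 10738 RPKM in control and 11734 in KD, but it read 524 and 529 in control PARS-seq (limma log2 difference -4.21, SE 0.17, adjusted p = 3.85e-08). HOTAIR, with 22.3 and 22.4 against 5.02, and TUG1, with 36.2 and 36.2 against 11.6, were higher in PARS-seq.

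Genes of microRNAs split into groups. Of 601 listed genes 51 passed, with medians of 2.97 and 2.34, 33 (64.7%) higher and 12 (23.5%) lower, against 25.2% and 29.2% of all genes. Of the 51, 33 had passed through PARS-seq only and 8 through RNA-seq only, and 20 were listed at 0 in RNA-seq. Among the 10 at 5 RPKM in both assays the balance was the opposite, with 2 (the row of MIR22 with its host MIR22HG, and MIR4746) higher and 4 (MIR4767, MIR762, MIR1282 and MIR614) lower. Without those 20 the median over replicates was 0.12, and over those 10 it was -0.20. The rows count any read that overlaps the hairpin's locus, so that mature RNA, precursor and host transcript cannot be told apart. MIR30A read 301 and 174 RPKM in PARS-seq and was listed at 0 in both RNA-seq libraries. MIR21, a microRNA raised in many tumours, read 106 and 62.5 against 0.341, and MIRLET7I 103 and 68.6 against 0.877. Ribo-seq held all 3 as well, MIR21 at 2037 and 5651 RPKM.

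At the other end MIR4523 read 0.723 and 0.561 in PARS-seq and 34.5 in RNA-seq, MIR1281 read 1.14 and 0.555 against 34.1, and MIR762 read 44.6 and 36.7 against 209. For 35 of the rows a hairpin sequence was found, only 5 of which reached 5 RPKM in both assays. Of the 7 hairpins of up to 45% GC 6 were higher in PARS-seq and 0 lower, of the 13 from 45% to 55% GC 11 were higher and 1 lower, and of the 15 over 55% GC 9 were higher and 5 lower. Spearman's correlation of hairpin GC content with the log2 ratio over the 35 rows was -0.46 and -0.47, which mostly sets rows that passed through PARS-seq beside rows that passed through RNA-seq. Mature sequences were matched for 42 of the 51 rows. Those of rows at either end are shown (RefSeq, GRCh38.p14) with the seed, bases 2 to 8, in capitals, to set some of the higher rows beside some of the lower ones. Matched rows that hold a microRNA gene alone shared the let-7 seed GAGGUAG in 5 cases and the miR-30a seed in 2, and all 7 had passed the filter only through PARS-seq, so their direction was set by it:
hsa-miR-30a-5p (MIR30A, higher): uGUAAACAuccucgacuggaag
hsa-miR-30c-5p (MIR30C2, higher): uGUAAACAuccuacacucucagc
hsa-let-7i-5p (MIRLET7I, higher): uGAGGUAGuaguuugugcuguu
hsa-let-7f-5p (MIRLET7F1, higher): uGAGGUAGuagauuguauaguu
hsa-miR-4523 (MIR4523, lower): gACCGAGAgggccucggcugu
hsa-miR-1281 (MIR1281, lower): uCGCCUCCuccucuccc
hsa-miR-762 (MIR762, lower): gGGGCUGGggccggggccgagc

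Replication-dependent histone genes that passed read mostly higher in PARS-seq, but for most of them the filter fixed that direction. Of 69 listed genes 36 passed, with medians of 1.89 and 1.72 (KD 2.41 and 2.01), 24 (66.7%) higher and 1 (2.78%) lower by the 2-fold rule, against 25.2% and 29.2% of all genes. Of the 36, 23 had passed through PARS-seq only, and 21 of the 24 higher genes were under 5 RPKM in RNA-seq. Among the 12 at 5 RPKM in both assays 3 (HIST1H2AG, HIST1H2BO and HIST1H3B) were higher and 1 was lower, with a median of 0.66, against 17.0% higher and 27.8% lower of all genes with 5 RPKM in both. Their median transcript GC content was 58.3%, and genes of that GC content had ratios near -1.30. Set against the value at its own GC content, the median histone was 2.97 higher, and 26 of the 31 with a transcript (83.9%) were at least 2-fold above that value and 0 below it, against 15.7% of all genes above. The filter bears on that count too. Among the 12 at 5 RPKM in both assays 8 (66.7%) were above the value and 0 below, against 15.2% above of all such genes. HIST1H4A read 47.3 and 29.4 RPKM in PARS-seq and 0.264 in RNA-seq, and 58.8 and 34.1 against a value listed at 0 in KD. HIST1H4B read 43.1 and 36.5 against 0.0688, and HIST1H4C 53.5 and 39.6 against 0.755.

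Not all histones were higher in PARS-seq by the 2-fold rule. Some of the others still lay above the value at their GC content, HIST1H1C by 1.94 and HIST1H2BK by 1.95. The linker histone HIST1H1C read 153 and 124 RPKM against 76.9, HIST1H2BK 51.7 and 60.9 against 35.2, HIST1H2AC 25.8 and 21.2 against 43.9, and HIST3H2A, the only one at least 2-fold lower in both replicates, 7.82 and 5.79 against 19.9. These messengers normally end in a short stem-loop instead of a poly-A tail. The stem-loop motif CTTTTNAG was searched on the transcript strand only, in the last 80 bases of each annotated transcript, with no regard to overlap with other motifs, and it was found in 30 of 31 histone transcripts (96.8%) and in 109 of all 8546 (1.28%). A match describes the annotated end and not the RNA of these cells. The last bases around the motif of HIST1H4A (high ratio) and HIST1H2AC (low ratio) are given with the motif in capitals (GRCh37, chromosome 6):
HIST1H4A: caaaggccCTTTTCAGggccgccc
HIST1H2AC: caaaggctCTTTTCAGagcccccc

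Among messenger RNAs the highest ratios belonged to genes of many functions. RPL22L1, a paralogue of a ribosomal protein, read 501 and 416 RPKM in PARS-seq and 1.35 in RNA-seq, and 267, 276 and 1.22 in KD. KIAA0101 read 2869 and 3320 against 23.3, and SRSF5, a splicing factor of the SR family, 3029 and 3969 against 47.5. TM2D1, a membrane protein, read 984 and 948 against 13.7, and FOS, an immediate early transcription factor, 447 and 337 against 6.87. None of these reached a comparable level in Ribo-seq, where SRSF5 read 35.9 and 21.4 RPKM, FOS 3.72 and 2.93, and TM2D1 18.5 and 8.91. PLTP, a phospholipid transfer protein, was the least even of them, with 458 RPKM in PARS-seq replicate 1 and 1613 in replicate 2 against 5.51 in RNA-seq. Its transcript has 59.6% GC, so its ratio stood 8.48 above the value at that GC content.

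At the low end CA9, a carbonic anhydrase induced by hypoxia, read 0.305 and 0.186 RPKM in PARS-seq and 82.0 in RNA-seq, and 0.150, 0.0925 and 90.5 in KD. Ribo-seq held CA9 at 58.2 and 43.0 RPKM. NDUFA4L2, a mitochondrial protein also known from hypoxia, read 0.490 and 0.367 against 46.9, with 9.30 and 40.02 in Ribo-seq. RARRES2, a secreted chemoattractant, read 8.59 and 9.65 against 314, and TGFB1, a secreted growth factor, 1.73 and 1.90 against 71.3. For CA9 and NDUFA4L2 both Ribo-seq libraries were above both PARS-seq replicates.

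Other genes of the low end were not GC-rich, and for those followed here the Ribo-seq libraries differed from each other, in either direction. SPINK13, a protease inhibitor with 37.9% GC, read 0.126 and 0.178 RPKM in PARS-seq and 45.3 in RNA-seq, a difference of -6.97 from the value at its GC content. Its Ribo-seq level was 144 in replicate 1, and it was listed at 0 in replicate 2. CSAG1 and PAGE1, members of cancer/testis antigen families, read 0.193 and 0.184, and 0.382 and 0.451, in PARS-seq against 35.5 and 34.2 in RNA-seq. Their Ribo-seq levels were 17.2 and 46.9 in replicate 1, with CSAG1 listed at 0 and PAGE1 at 0.453 in replicate 2. TTL, a tubulin tyrosine ligase with 42.5% GC, read 0.0353 and 0.0749 against 17.7, with 4.09 in Ribo-seq replicate 1 and 20.2 in replicate 2. LUM (34.9% GC) and HMGN5 (33.7% GC) differed from the value at their GC content by -3.98 and -4.39. PAGE1, TTL, LUM and HMGN5 were picked by their distance from the value at their GC content, and EMG1 and PHF10 by their S1 and V1 values, after values were seen.

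Such one-sided genes were counted with fixed limits, as a description. In 107 genes RNA-seq was at or over 5 RPKM while both PARS-seq replicates were under 1 but not at 0, with a median GC content of 60.6%, and in 161 genes both PARS-seq replicates were at or over 5 and RNA-seq under 1 but not at 0, with a median of 37.4%. Of the 107, 17 had at least 5 RPKM in Ribo-seq replicate 1 and under 1 in replicate 2, a pattern shown by 58 of all 9091 genes. By the same estimate 5 RPKM on 1000 bases is only 4.96 reads in Ribo-seq replicate 1 and 16.7 in replicate 2, so single low values there are a few reads.

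To set beside these values, stretches of 60 bases from the middle of 6 coding sequences are shown with G and C in capitals (GRCh37). RPL22L1 (chr3:170582664-170587984, minus strand, codons 52 to 71) and TM2D1 (chr1:62146718-62190813, minus strand, codons 95 to 114) had high ratios and transcripts of 39.9% and 39.2% GC. CA9 (chr9:35673925-35681156, plus strand, codons 221 to 240) and NDUFA4L2 (chr12:57628686-57630887, minus strand, codons 35 to 54) had low ratios and 59.9% and 63.2% GC. PLTP (chr20:44527261-44540794, minus strand, codons 238 to 257) and SPINK13 (chr5:147648357-147665818, plus strand, codons 38 to 57) went against the trend:
RPL22L1: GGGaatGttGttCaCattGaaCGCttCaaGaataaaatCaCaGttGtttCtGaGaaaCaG
TM2D1: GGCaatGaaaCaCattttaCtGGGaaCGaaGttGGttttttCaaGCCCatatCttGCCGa
CA9: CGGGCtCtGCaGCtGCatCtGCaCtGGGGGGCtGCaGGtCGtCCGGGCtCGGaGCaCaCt
NDUFA4L2: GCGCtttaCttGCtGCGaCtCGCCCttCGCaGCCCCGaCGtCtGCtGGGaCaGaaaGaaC
PLTP: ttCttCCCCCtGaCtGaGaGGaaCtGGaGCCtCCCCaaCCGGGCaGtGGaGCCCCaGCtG
SPINK13: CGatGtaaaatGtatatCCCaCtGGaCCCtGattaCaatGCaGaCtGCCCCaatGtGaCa

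The enzymes of glycolysis were lower in PARS-seq more often than higher in the table's RPKM. Of 19 listed genes 18 passed, 17 of them in both assays, with medians of -1.18 and -1.47, 9 (50%) lower and 2 (11.1%) higher, against 29.2% and 25.2% of all genes. The limma fit called 12 lower and 3 higher, against 43.8% and 41% of all genes. Their median GC content was 54.1%, and the median distance from the value at their GC content was -0.26. GAPDH read 1208 and 975 RPKM in PARS-seq and 3540 in RNA-seq, ALDOA 297 and 251 against 846, and TPI1 109 and 73.9 against 358. The 2 higher ones were LDHB, with 413 and 422 against 156, and the muscle isoform PFKM, with 81.0 and 73.4 against 34.7. PGK1 (913 and 521 against 480) and LDHA (358 and 385 against 209), with 42.8% and 41.8% GC, lay between. The lowest ratios of the list, those of TPI1 and PGAM1, stood beside far higher levels in the read starts. TPI1 had 606 and 311 S1 and 386 and 294 V1 depth-scaled read starts per kilobase on its own transcript, against 109 and 73.9 RPKM in the table. PGAM1 had 156 and 108 S1 and 139 and 103 V1 read starts per kilobase, against 8.88 and 6.94 RPKM in the table and 32.3 in RNA-seq. The lower direction of both therefore rests on the table's RPKM, and both are among the 9 counted as lower. The genome holds near-identical copies of such enzymes, so their RPKM are uncertain.

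Genes of other large complexes spread widely, and apart from cytosolic ribosomal proteins their list medians lay above that of all genes. Their counts are to be read against the 25.2% higher and 29.2% lower of all genes by the 2-fold rule, and 41% and 43.8% by limma. Among genes at 5 RPKM in both assays, 17.0% of all genes were higher and 27.8% lower by the 2-fold rule. The shares there were 34.9% and 9.3% for proteasome subunits and 28.6% and 18.6% for oxidative phosphorylation subunits. They were 19.4% and 17.9% for mitochondrial and 23.9% and 34.3% for cytosolic ribosomal proteins. Cytosolic ribosomal proteins had medians of 0.10 and -0.30 over the 70 that passed, 17 higher and 23 lower (25 and 32 by limma), from RPS2 with its SNORA10 and SNORA64 (26.4 and 26.8 RPKM against 418) and RPS15 (49.4 and 51.8 against 593) to RPL39 with SNORA69 (77.6 and 78.3 against 1.24) and RPL41 (160 and 172 against 12.2). The sign of this list's median changed between replicates and when ratios were centred on their median, so no direction is given. These genes have many pseudogenes, and their levels are uncertain. The 72 subunits of oxidative phosphorylation had medians of 0.49 and 0.43, with 21 higher and 13 lower (37 and 21 by limma), from NDUFS7 (26.8 and 23.6 against 187) to NDUFA5 (91.1 and 116 against 3.45). The 43 proteasome subunits had 0.44 and 0.44, with 15 higher and 4 lower (23 and 13 by limma), led by the deubiquitinase PSMD14 (588 and 561 against 25.04, limma log2 difference 4.48, SE 0.14, adjusted p = 1.37e-08). The 74 mitochondrial ribosomal proteins had 0.50 and 0.21, with 18 (24.3%) higher and 13 (17.6%) lower, and 36 and 25 by limma.

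The SR and hnRNP splicing factors had transcripts of only 41.8% GC, and 29 of 34 passed with medians of 0.44 and 0.77. Of these 7 (24.1%) were higher and 4 (13.8%) lower, against 25.2% and 29.2% of all genes, and limma called 16 and 8, against 41% and 43.8%. Their median difference from the value at their GC content was -0.67. HNRNPD, with 42.2 and 62.6 RPKM against 175, and HNRNPA0, with 42.1 and 45.7 against 108, were AU-rich and yet lower in PARS-seq, while SRSF5 stood alone at the top. Zinc finger ZNF genes (138 passed) had medians of -0.14 and -0.19, with 43 or 31.2% higher and 50 or 36.2% lower (60 and 65 by limma). Solute carriers (133 passed) had -0.59 and -0.55, with 24 of 133 higher and 45 or 33.8% lower (45 and 71 by limma). Both lists spread to both sides, and centring turned the sign of the ZNF median. The filter set many of these directions. Of the ZNF genes 44 had passed through PARS-seq only and 43 through RNA-seq only, and of the solute carriers 20 and 26. Of the higher genes, 36 of 43 and 15 of 24 were under 5 RPKM in RNA-seq. At 5 RPKM in both assays, 7 of 51 ZNF genes (13.7%) were higher and 13 (25.5%) lower. Of 87 solute carriers 9 (10.3%) were higher and 26 (29.9%) lower, against 17.0% and 27.8% of all such genes.

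The counts of the remaining lists are to be read against the shares of all genes called by limma, 41% higher and 43.8% lower. Translation initiation and elongation factors (60 passed), DEAD-box and DEAH-box helicases (43), DNA replication genes (44) and cholesterol synthesis enzymes (20) had medians between -0.35 and 0.31 in each control replicate, and limma called 19 higher and 26 lower, 20 and 14, 21 and 19, and 8 and 10. Integrins, laminins and collagens (24) had -0.57 and -0.64 (7 higher and 12 lower by limma), with LAMB1 at 121 and 129 RPKM against 15.7 and COL18A1 at 0.525 and 0.753 against 8.37. The 4 metallothioneins, metal-binding proteins encoded by transcripts of 401 to 746 bases, had 0.92 and 1.35 (KD 1.70 and 2.31), and limma called 4 of 4 higher, while the 2-fold rule called 1 (MT1X) higher. MT1F and MT1X had passed through PARS-seq only, so the filter favoured their direction and the limma calls on them are no test. Of the 2 at 5 RPKM in both assays the 2-fold rule called 0 higher and 0 lower. MT2A read 190 and 326 against 112. Secreted plasma proteins (4 passed of 57) and apolipoproteins (3 of 17) were too few to describe.

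**Figure D5:**
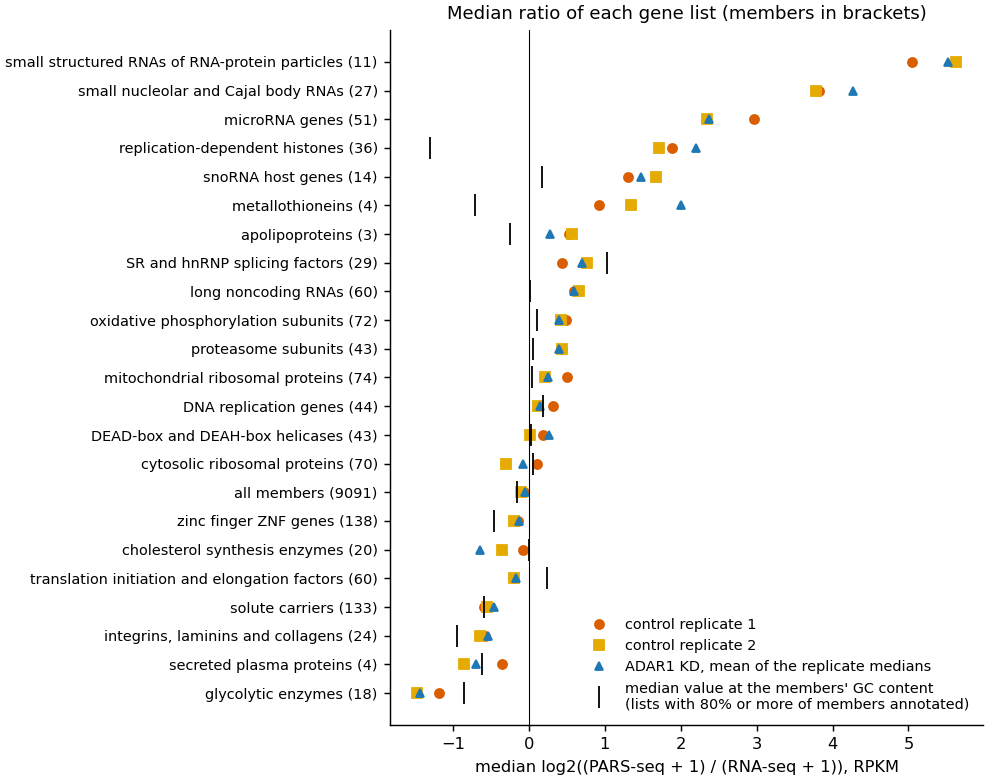
For each gene list the median log2 ratio is drawn for control replicate 1 (circle), control replicate 2 (square) and the mean of the KD replicate medians (triangle). A bar marks the median of the values that a regression over protein-coding genes gives at the members' GC content. Histones lie at 1.89 and 1.72 with their bar at -1.30, and glycolytic enzymes at -1.18 and -1.47 with their bar at -0.85.

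Length gave a weaker pattern than base composition. The 88 transcripts of at most 500 bases had medians of 0.86 and 0.79 and lay 1.45 above the value at their GC content. Transcripts of 1000 to 2000 bases had -0.47 and -0.53, and the 280 over 10000 bases, whose median GC content was 42.9%, had 0.83 and 0.81.

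Values of exactly 0 entered the ratios, counts and medians above as low levels. Without them the 2-fold rule gave 2237 genes higher and 2638 lower, against 2293 and 2654 with them. In 16 genes both control PARS-seq replicates were listed at 0 while RNA-seq reached at least 5 RPKM, and 13 of these have an annotated place on chromosome 6. In 56 genes RNA-seq was listed at 0, 11 of them placed on chromosome 6 and 39 with names of microRNAs or small nucleolar and similar RNAs. Of the 56, 49 were also at 0 in KD RNA-seq. Rows that join PPT2 with EGFL8 and MSH5 with SAPCD1 had no annotated place, so they are in neither chromosome 6 count. The chromosome 6 genes counted were 24 members in a row among those with an annotated place, each missing from 1 of the 2 assays. The tubulin TUBB read 780 and 892 RPKM in control and KD RNA-seq and CUTA 384 and 428, and both were listed at 0 in every PARS-seq column. CLIC1 read 308 and 214 in control PARS-seq, KIFC1 58.3 and 50.9, and DAXX 26.7 and 28.6, and these were listed at 0 in both RNA-seq columns. All 24 were at 0 in Ribo-seq replicate 2, and the 13 without PARS-seq values were the ones with values in Ribo-seq replicate 1. Genes that every cell uses are among them, so these zeros do not show that the RNA was absent, and how they arose was not tested. The run was picked after values were seen.

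The filter limits were not special. TRIML2 entered with 5.01 RPKM in PARS-seq replicate 2 and FBLIM1 with 5.004 in RNA-seq, while DCP1A at 4.99 and SLC25A26, which was nearer still, stayed out through their PARS-seq values.

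The ratio of the assays was compared between conditions by adding the interaction of assay and condition to the limma fit. Of 9091 genes, 1 (0.011%) passed an adjusted p under 0.05, and 396 had an unadjusted p under 0.05. This gene was SPP1, a secreted phosphoprotein, with 9.97 and 10.3 RPKM in control PARS-seq and 0.243 and 0.368 in KD PARS-seq, but listed at 0 in control RNA-seq and at 0.0730 in KD RNA-seq. It passed the filter only through control PARS-seq, the columns where it is high, so these are values and not a test of a difference between conditions.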

How the data were processed

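The authors aligned reads with Bowtie2 to hg19, kept uniquely aligned reads and deposited RPKM per gene. The submitters' processing notes also name cutadapt, and versions are not given in the sources used here. Reads of all assays were counted per RefSeq transcript with coverageBed, by a command that names no strand option, so overlapping and antisense genes cannot be told apart. Each PARS-seq RPKM is the authors' mean of an S1 and a V1 library. The deposited read starts per base of UCSC transcripts were summed here per transcript, as whole-number counts, per kilobase, scaled to depth. Columns of the RPKM table not used here number 2. Gene symbols (633 rows join several) were matched to GENCODE v44lift37 on GRCh37 for GC content and length. The value at a GC content comes from a local regression over the 8411 protein-coding genes, read off for all 8546 genes with a transcript.

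Ratios carried a pseudocount of 1 and a minimum of 5 RPKM, and a 2-fold rule in both replicates. As control RNA-seq is a single library, limma 3.58.1 (R 4.3.3) with a mean trend fitted the control and KD columns (6) with condition as a term, and its p-values measure the spread between these columns, which may be technical. Other values came from Python 3.11.15, numpy 2.4.6, pandas 2.3.3 and statsmodels 0.14.6. On simulated data for this comparison (9091 genes) limma recovered 67% of 100 genes changed 2-fold and 96% of 100 changed 4-fold, with 6 false calls. The simulated noise was independent between genes and most genes were left unchanged. In the measured data limma called 41% of genes higher and 43.8% lower, so the simulated rates do not carry over to those calls. Read depth was estimated from the smallest RPKM steps, which cannot be done for averaged PARS-seq columns. Named genes were the 10 highest and 10 lowest ratios (genes listed at 0 left out), the 2 highest and 2 lowest of each list, all of lists of up to 12, ADAR, markers and genes at the filter limits. Other examples were chosen after their values were seen, and the members and lists were chosen with earlier results of these data known.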

Additional observations from a re-analysis of the deposited data

Results flagged for a closer look

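SPP1 stood out by the difference of its PARS-seq to RNA-seq ratio between ADAR1 KD and control cells. Its log2 ratio was 3.48 in control and 0.28 in KD, a difference of -3.20, from 2 PARS-seq columns and 1 RNA-seq column in each condition. The genes were filtered on control columns, and SPP1 entered only through its high control PARS-seq level while control RNA-seq listed it at 0, so the fit's call on it supports no difference between conditions, and the size depends on the pseudocount.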

How the results depend on the processing

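No paired analysis was possible because each condition has a single RNA-seq library, so no replicate numbers are shared between the assays. Counts of genes higher and lower by the 2-fold rule were 1049 and 1720 among genes at 5 RPKM in both assays, 902 and 862 with a 4-fold rule, 1138 and 803 for differences from the value at the GC content, 2462 to 2578 and 2859 to 2884 with 1 replicate left out, and 2741 and 2184 after centring, which moved the share of higher calls from 46.4% to 55.7%. Among genes at 5 RPKM in both assays that share was 37.9%. The median ratio was -0.23 with 5 RPKM in both assays, 0.00 without a filter and -0.11 to -0.06 with 1 replicate left out. Spearman's correlation of GC content with the ratio was -0.75 with 5 RPKM in both assays and -0.61 without a filter.

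With a pseudocount of 0.1 the medians were 2.30 for histones, 6.13 for small nucleolar RNAs, 4.73 for microRNA genes and 7.24 for small structured RNAs. With 5 RPKM in both assays they were 0.66 (12 genes), 4.35 (1 gene), -0.20 (10 genes) and 7.22 (2 genes), with -1.20 for glycolytic enzymes and -0.28 for DNA replication genes. Centring gave 2.03 for histones, 4.08 for small nucleolar RNAs, -1.18 for glycolytic enzymes, 0.17 for cytosolic ribosomal proteins and 0.079 for ZNF genes. KD columns gave 2.24 for histones and 4.23 for small nucleolar RNAs. Without genes listed at 0, an alternative chosen like those on GC content after seeing the data, the medians were 3.56 for small nucleolar RNAs, 0.12 for microRNA genes and 5.92 for small structured RNAs. With 1 replicate left out they were 3.79 to 3.82 for small nucleolar RNAs, -1.47 to -1.18 for glycolytic enzymes and -0.30 to 0.10 for cytosolic ribosomal proteins. Transcripts of up to 1000 bases had a median of -0.11 in the paired set and 0.12 with UCSC lengths. In single named genes, 583 values under alternatives kept direction and side of the threshold, 9 passed it anew and 8 lost it. Of the medians of the other lists and of length classes under alternatives, 71 stayed within the spread between replicates, 41 moved beyond it and 5 changed sign. The causes were not tested. The main limits are the single RNA-seq library, PARS-seq values that are means of unlike libraries, and small RNAs that rest on few RNA-seq reads.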
